A study of Mus musculus with 8 samples.

Results

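The tubulin genes described here are a list of 10 named members: the alpha-tubulin genes Tuba1a, Tuba1b, Tuba1c and Tuba4a, the beta-tubulin genes Tubb2a, Tubb2b, Tubb4b, Tubb5 and Tubb6, and the gamma-tubulin gene Tubg1. They were 10 of the 53465 Ensembl gene IDs in the count files, and all 10 were among the 14443 genes that passed the filter on low counts. The list was drawn up with the difference between the groups in view, so the members' differences are given as a description, without a test. Whatever was tested below concerns genes outside the list. The gene lists used there were also chosen with earlier results of these data known.

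The 4 FABPi libraries came from wild-type C57BL/6 mouse regulatory T cells (Tregs) polarized in culture and then exposed to 50 µM BMS309403, a compound that blocks fatty acid-binding proteins and served here as an inhibitor of FABP5. The 4 Treg libraries came from the same kind of culture without the compound. In both groups, CD4+ T cells from spleen and peripheral lymph nodes were stimulated with plate-bound anti-CD3 (5 µg/mL) and anti-CD28 (0.5 µg/mL) with TGF-β (5 ng/mL) and IL-2 (100 U/mL), while IFN-γ, IL-12 and IL-4 were blocked by antibodies, and the cultures were divided after 72 h. The labels state no vehicle, no length of exposure and no sort for the Treg phenotype, and do not say whether replicates were separate mice or cultures, so the spread between replicates may be technical.

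Total counts were between 38684721 and 42552943 in the FABPi libraries and between 32923433 and 44644485 in the Treg libraries. Foxp3, the lineage factor of Tregs, averaged 1247 ± 15.3 CPM in FABPi and 950.0 ± 55.6 CPM in Treg libraries (SD, n = 4 each), where CPM is the count per 1000000 counts of the scaled library size. Of 6 general T cell markers, 4 were lower in FABPi libraries at an adjusted p under 0.05 in the edgeR fit over all genes (log2 fold changes of −0.46 for Cd3e, −0.36 for Cd3d, −0.26 for Cd3g and −0.19 for Cd5), while Cd4 (adjusted p = 0.400) and Thy1 (adjusted p = 0.939) were not called. Their summed level was between 2185 and 2321 CPM in FABPi and between 2435 and 2546 CPM in Treg libraries, and their part in the results was not tested. Of the NK cell markers, Ncr1 was at 0 in all 8 libraries, and the summed level of the 3 markers was between 2.57 and 5.06 CPM in FABPi and between 1.25 and 2.82 CPM in Treg libraries. Nearly all of it was Eomes, which some T cells also express, at 3.48 ± 1.11 CPM in FABPi and 1.77 ± 0.715 CPM in Treg libraries; its part in the results was not tested. The 5 platelet markers summed to between 1.93 and 3.05 CPM in FABPi and between 1.30 and 2.67 CPM in Treg libraries, with Ppbp and Gp9 at 0 throughout. The 5 red cell markers summed to between 0.181 and 0.356 CPM in FABPi and between 0.274 and 0.565 CPM in Treg libraries, with Hbb-bs and Hba-a2 at 0 throughout. Summed CD8 T cell markers did not exceed 14.9 CPM, and summed B cell markers 8.72 CPM, in any library. The first principal component of all tested genes held 60.1% of the variance and separated the groups. The second held 14.8% and set replicate 1 of both groups apart from the other replicates.

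Microtubules are built from dimers of 1 alpha- and 1 beta-tubulin, and mammals carry several genes, called isotypes, for each. Gamma-tubulin sits in a ring complex at the centrosome and other sites, from which new microtubules grow. In T cells the centrosome and its microtubules move toward the contact with an antigen-presenting cell, and dividing cells rebuild the array as a spindle. Work in human cell lines has shown that cells hold tubulin levels in check by autoregulation: TTC5 recognizes the first residues of alpha- and beta-tubulin chains as they leave the ribosome and, through SCAPER and the CCR4-NOT deadenylase, the mRNA is degraded when free dimers are in excess.

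The coding starts of 5 genes are shown because these first codons encode the residues read during autoregulation of the alpha and beta genes. Each line gives the first 45 bases of the coding sequence, 5′ to 3′, from GENCODE M21 transcripts (GRCm38), with the first 4 codons in capitals.
Tuba4a: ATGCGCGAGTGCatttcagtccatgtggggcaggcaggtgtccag
Tubb5: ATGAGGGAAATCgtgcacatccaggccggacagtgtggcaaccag
Tubb4b: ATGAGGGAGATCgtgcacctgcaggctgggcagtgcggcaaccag
Tubb2a: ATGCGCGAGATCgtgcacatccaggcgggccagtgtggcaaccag
Tubg1: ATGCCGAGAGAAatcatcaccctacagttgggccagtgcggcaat
No 2 of the beta genes shown had the same first 4 codons at the DNA level, but these codons encode the same residues. The start of Tubg1, whose product is not part of the dimer, had codons of its own. Over the whole coding sequence, Tuba1a and Tuba1b were 98.3% identical, Tuba1b and Tuba1c 97.9%, and Tubb2a and Tubb2b 96.5%. Between Tubb5 and Tubb6 the identity was 80.3%.

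The pairs that resemble each other also lie together in the genome. In GRCm38 coordinates, Tuba1b (chr15:98931425-98934565, minus strand), Tuba1a (chr15:98949837-98953703, minus strand) and Tuba1c (chr15:99029891-99038110, plus strand) form a cluster, with 15.3 kb between Tuba1b and Tuba1a and 76.2 kb between Tuba1a and Tuba1c. Tubb2a (chr13:34074274-34078007, minus strand) and Tubb2b (chr13:34126748-34130466, minus strand) lie 48.7 kb apart. Tuba4a (chr1:75214228-75219865, minus strand), Tubb4b (chr2:25222160-25224702, minus strand), Tubb5 (chr17:35833921-35838306, minus strand) and Tubg1 (chr11:101119938-101126419, plus strand) have no other member on their chromosomes, and Tubb6 is on chromosome 18.

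This resemblance limits how reads can be assigned. Of all 50-base stretches of its transcripts, Tuba1a shared 75.5% with at least 1 other annotated gene, Tuba1b 75.1%, Tuba1c 52.7%, Tubb2a 49.6%, Tubb4b 41.3%, Tubb2b 36.9% and Tuba4a 35.4%. For Tubg1 the share was 11.1%, for Tubb5 0.09%, and no stretch of Tubb6 was shared. The sources used here do not say how reads with several matches were counted. The split of counts among Tuba1a, Tuba1b and Tuba1c, and between Tubb2a and Tubb2b, is thus uncertain. So are levels compared between genes that share much and genes that share little, such as Tuba1b and Tubb5. The 20 pseudogenes in the files that shared at least 1 such 50-base stretch with a member summed to 5.25 CPM in FABPi and 7.38 CPM in Treg libraries on average. The stretches were matched on either strand. Part of the Tuba1a and Tuba1b shares is overlap and not resemblance. The annotated gene Gm49450, on the same strand, covers 26.2% of the exonic length of Tuba1a and 22.7% of that of Tuba1b. It shares 38.4% and 33.6% of their stretches, and is not in the count files. Stk16, a kinase gene on the opposite strand, covers 37.3% of the exonic length of Tuba4a. It shares 34.6% of the 50-base stretches of Tuba4a, so most of the Tuba4a share is this overlap and not resemblance. Stk16 averaged 50.0 CPM in FABPi and 44.2 CPM in Treg libraries. Its log2 fold change was 0.18 (adjusted p = 0.0136 in the edgeR fit over all genes), opposite in direction to that of Tuba4a.

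Transcripts of 9 of the 10 genes were lower in all 4 FABPi libraries than in any Treg library: all 4 alpha genes, 4 of the 5 beta genes and Tubg1. Groups were separated in that direction for 16.1% of all tested genes, and 36.8% of them were called in either direction by the test described below; since the list was chosen on this contrast, nothing is read from that. Tubb6 was 2.73-fold lower and Tuba1c 1.52-fold lower, and the other 7 were lower by less than 1.5-fold. Tubb2a alone overlapped between the groups. The members' median log2 fold change, FABPi over Treg, was −0.36, and −0.32 without Tubb6, while the median over all tested genes was 0.01. Fewer cells of a kind and less RNA per cell cannot be told apart in bulk RNA.

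**Figure D1:**
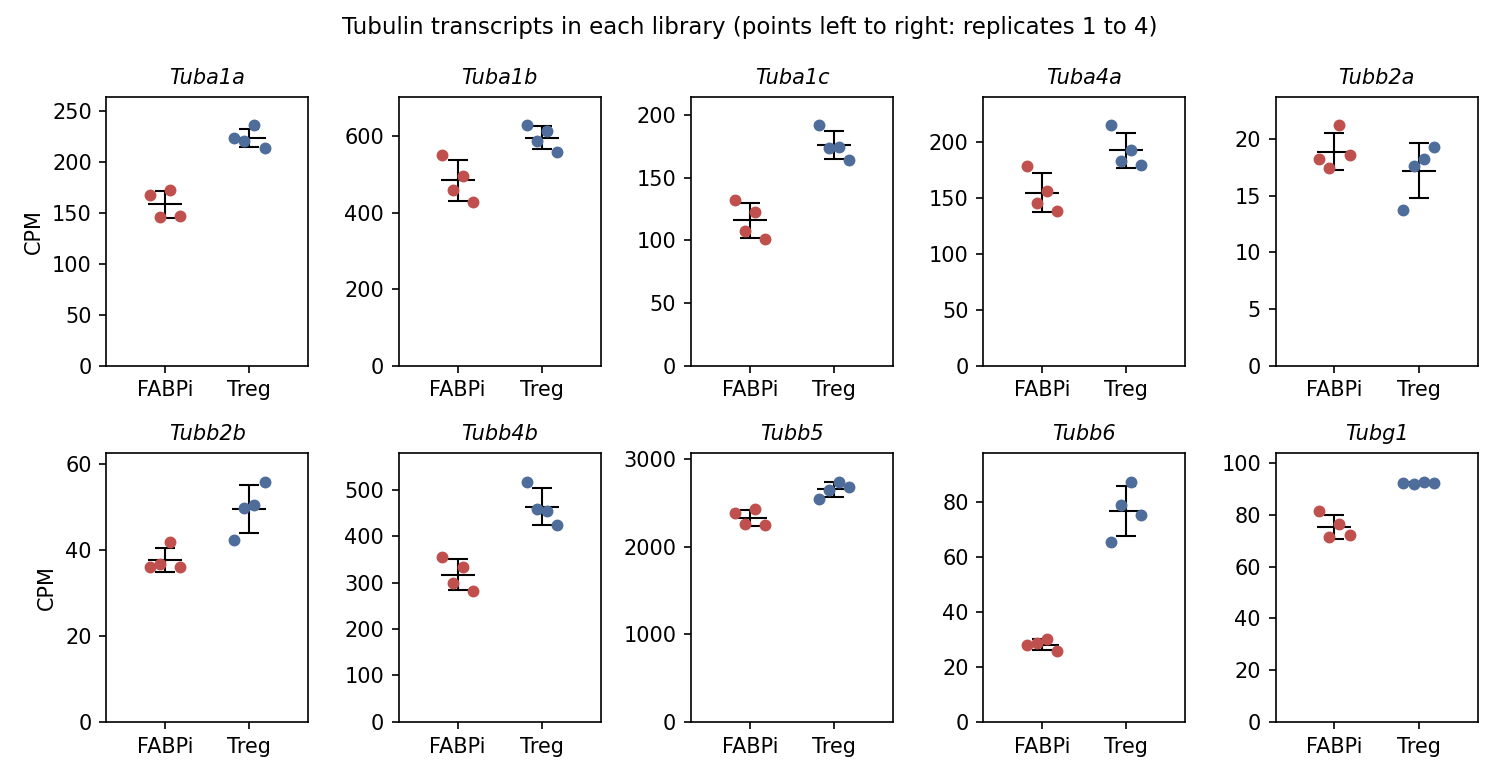
CPM of each of the 10 tubulin genes in the FABPi (red) and Treg (blue) libraries, with points for replicates 1 to 4 from left to right and black lines for the mean and SD; each axis starts at 0. The groups are apart in 9 panels, most widely for Tubb6, and overlap for Tubb2a.

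Among the alpha genes, Tuba1b had the highest level per length. It had 552, 459, 496 and 429 CPM in the FABPi libraries, against 629, 587, 613 and 558 CPM in the Treg libraries. The groups came close to touching, with 6.06 CPM between the highest FABPi library, replicate 1, and the lowest Treg library, replicate 4. Replicate 1 was the highest library of both groups. The log2 fold change was −0.30 (SE 0.07), a level 1.23-fold lower in FABPi.

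Tuba1a, which is best known for its part in the developing nervous system, had 167, 146, 172 and 147 CPM in the FABPi libraries, against 224, 221, 236 and 214 CPM in the Treg libraries. The highest FABPi library was 41.8 CPM below the lowest Treg library. Its log2 fold change was −0.50 (SE 0.06), 1.41-fold lower. Tuba1c had 132, 108, 123 and 101 CPM in FABPi libraries, against 192, 174, 174 and 164 CPM in Treg libraries. Here too the groups were well apart, with a log2 fold change of −0.60 (SE 0.08), the lowest of the alpha genes.

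Tuba4a is the isotype whose gene already lacks the codon for a C-terminal tyrosine, which other alpha-tubulins gain and lose by enzymatic modification. It had 179, 146, 156 and 138 CPM in FABPi libraries, against 215, 183, 193 and 180 CPM in Treg libraries. FABPi replicate 1 lay 1.58 CPM below the lowest Treg library, the narrowest separation among the alpha genes. The log2 fold change was −0.32 (SE 0.08).

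Tubb5 was the highest beta gene and, by mean CPM in the Treg libraries, number 13 of all tested genes. It had 2385, 2259, 2431 and 2249 CPM in FABPi libraries, against 2543, 2650.2, 2742 and 2685 CPM in Treg libraries. The groups did not overlap, and the replicates were tight, with a coefficient of variation of 3.90% in FABPi and 3.15% in Treg libraries. The log2 fold change of −0.19 (SE 0.05), 1.14-fold lower, was the smallest among the 9 lower genes. Its difference in CPM was the largest of the 10 genes, 2331 ± 90.9 CPM in FABPi and 2655 ± 83.7 CPM in Treg libraries (SD, n = 4 each).

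Tubb4b, a beta isotype expressed widely and also found in cilia, had 354, 300.1, 333 and 282 CPM in FABPi libraries, against 518, 459, 454 and 423 CPM in Treg libraries. The highest FABPi library was 68.9 CPM below the lowest Treg library, and replicate 1 led both groups. The log2 fold change was −0.55 (SE 0.08), 1.46-fold lower.

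Tubb6 showed the widest difference of the list. It had 27.9, 28.7, 30.3 and 25.7 CPM in FABPi libraries, against 65.6, 78.9, 87.5 and 75.5 CPM in Treg libraries. FABPi libraries held 36.6% of the mean Treg level, and the log2 fold change was −1.45 (SE 0.08). Only 0.589% of all tested genes had a lower log2 fold change. For the next genes of the list, Tuba1c, Tubb4b and Tuba1a, this share was 4.81%, 5.74% and 6.76%.

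The neighbouring genes Tubb2a and Tubb2b differed in the sign of their fold change. Tubb2b, known for its part in the developing brain, had 36.1, 36.7, 42.0 and 36.1 CPM in FABPi libraries, against 42.4, 49.8, 50.5 and 56.0 CPM in Treg libraries. The separation was 0.407 CPM, between FABPi replicate 3 and Treg replicate 1, and the log2 fold change was −0.40 (SE 0.08). Tubb2a had 18.2, 17.4, 21.2 and 18.6 CPM in FABPi libraries, against 13.7, 17.6, 18.2 and 19.3 CPM in Treg libraries. Treg replicate 1 lay below all FABPi libraries, the other 3 Treg libraries lay within their range, and the log2 fold change was 0.13 (SE 0.10).

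Tubg1, which nucleates microtubules, had 81.4, 71.3, 76.5 and 72.3 CPM in FABPi libraries, against 92.4, 91.7, 92.8 and 92.2 CPM in Treg libraries. The 4 Treg libraries were almost level, with a coefficient of variation of 0.499%, against 6.07% in FABPi libraries. At 2982 to 4080 counts per Treg library, counting noise alone would spread values by more than 0.499%. Nothing is therefore read from this contrast in spread. The log2 fold change was −0.29 (SE 0.05), 1.22-fold lower.

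**Figure D2:**
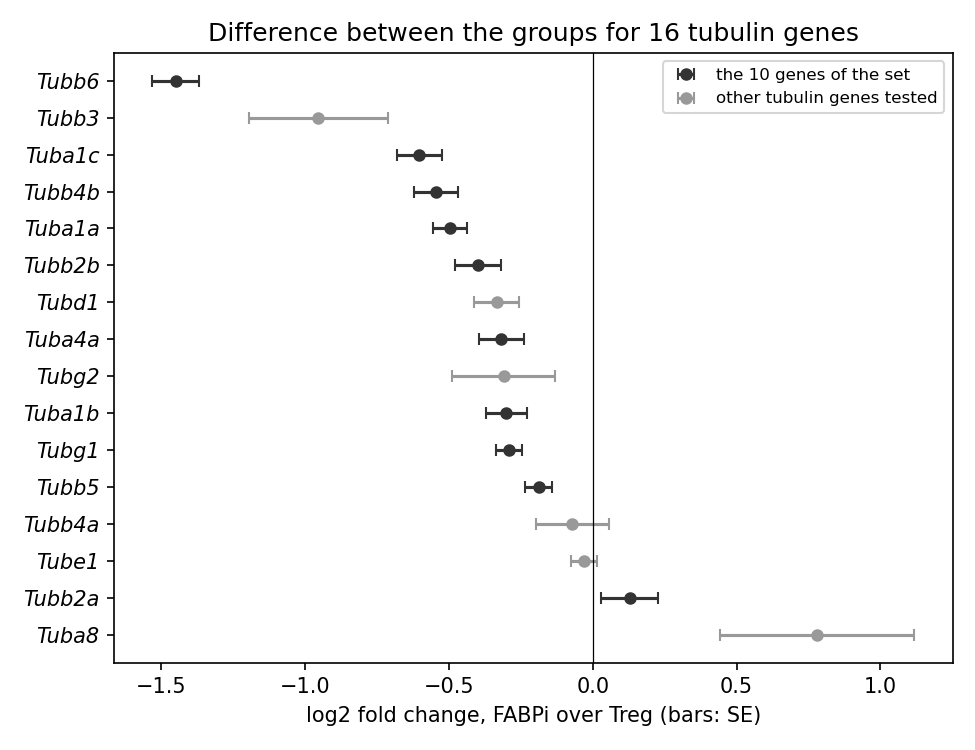
Fitted log2 fold change, FABPi over Treg, of the 10 tubulin genes of the set (black) and of 6 other tubulin genes that passed the filter (grey), with bars of 1 SE. Tubb6 lies at −1.45, the other lower genes of the set between −0.60 and −0.19, and Tubb2a at 0.13.

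Tuba1b, Tuba1c, Tuba4a and Tubb4b, 4 of the 10 genes, were highest in replicate 1 of both groups, as were 20.8% of all tested genes. Across the 8 libraries, the profiles of Tuba1c and Tubb4b were the closest of any pair in the list, with a root mean square distance of 0.0386 between their centred log2 CPM. Tuba1b and Tuba4a followed at 0.0394. Tubb6 was the farthest from the rest, at distances between 0.452 and 0.800. These distances include the difference between the groups and are a description.

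Set beside all genes, the profile most like that of Tuba1b belonged to Uxs1, an enzyme that makes UDP-xylose, with a distance of 0.0243 over 8 libraries among 14405 genes compared. It was followed by Swi5, a recombination factor (0.0280), and Vamp7, a vesicle fusion protein (0.0346). For Tubb5 the nearest were Lck, the kinase that starts T cell receptor signalling (0.0138), Smurf1, a ubiquitin ligase (0.0202), and Tecr, an enzyme of very long chain fatty acid synthesis (0.0227).

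**Figure D3:**
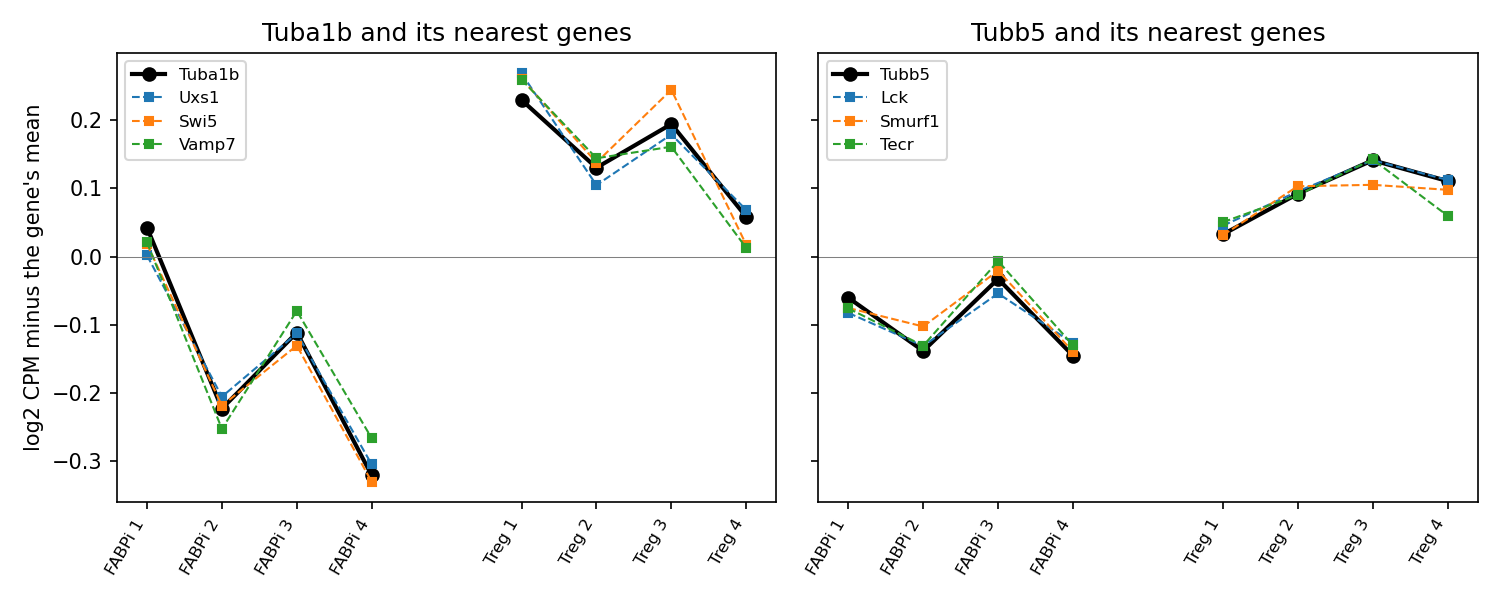
Log2 CPM of Tuba1b (left) and Tubb5 (right) in each library, minus the gene's own mean, with the 3 genes of smallest root mean square distance to each; FABPi libraries stand left of Treg libraries. Tuba1b stands highest in replicate 1 of both groups, and its nearest genes do the same in FABPi and in Treg libraries.

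Per length, Tubb5 led the list with 701 ± 27.3 CPM per kb of exon in FABPi and 798 ± 25.2 in Treg libraries (SD, n = 4 each). Next came Tuba1b with 258 ± 28.2 CPM per kb in FABPi and 318 ± 16.5 in Treg libraries. Tubb4b followed with 152 ± 15.6 CPM per kb in FABPi and 222 ± 18.8 in Treg libraries, then Tuba1a with 87.8 ± 7.45 in FABPi and 124 ± 5.11 in Treg libraries. Tuba1c had 50.6 ± 6.10 CPM per kb in FABPi and 76.9 ± 5.01 in Treg libraries, and Tuba4a 41.8 ± 4.72 in FABPi and 52.1 ± 4.30 in Treg libraries. Per length, Tuba1c was above Tuba4a in all 8 libraries, although in FABPi libraries the ranges of mean ± SD of the 2 genes overlapped. This order depends on the length used, as all exons of Tuba4a span 3701 bases and its longest transcript has 2840. In plain CPM the order was reversed. Tuba4a averaged 155 and Tuba1c 116 CPM in FABPi libraries, against 193 and 176 CPM in Treg libraries. Tubg1 had 33.3 ± 2.02 CPM per kb in FABPi and 40.7 ± 0.203 in Treg libraries. The 3 lowest genes changed places between groups. Tubb6 had 11.5 ± 0.781 CPM per kb in FABPi libraries, below Tubb2b at 16.5 ± 1.24 and within the spread of Tubb2a at 11.7 ± 1.01. In Treg libraries it had 31.5 ± 3.72 CPM per kb, above Tubb2b at 21.7 ± 2.43 and Tubb2a at 10.7 ± 1.51. The nearness of Tubb6 to Tubb2a in FABPi libraries depends on the length used. All exons of Tubb6 together span 2437 bases, and its longest transcript has 1758. In plain CPM, Tubb6 averaged 28.1 in FABPi libraries, above Tubb2a at 18.9 and below Tubb2b at 37.7.

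Summed per length, the 4 alpha genes held 439 ± 45.1 CPM per kb in FABPi libraries and 571 ± 28.4 in Treg libraries (SD, n = 4 each), 23.2% less in FABPi. The 5 beta genes held 892 ± 43.4 CPM per kb in FABPi and 1084 ± 19.1 in Treg libraries, 17.7% less. Reads with several matches bear on these sums unequally, since Tuba1b shared 75.1% of its 50-base stretches and Tubb5 0.09%. The size of each sum and of their ratio is thus uncertain. The ratio of the alpha to the beta sum was 0.533, 0.479, 0.488 and 0.462 in FABPi libraries, against 0.564, 0.519, 0.528 and 0.498 in Treg libraries. The ranges overlapped. The FABPi library was lower in 4 of 4 same-numbered pairs, although the labels do not say that the numbers mark pairs. In both groups replicate 1 was highest and replicate 4 lowest. In each library the members together took a small part of all counts, 0.374% ± 0.0170 in FABPi and 0.451% ± 0.00805 in Treg libraries.

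The leading isotype of each class took a larger share of its class in FABPi libraries. Tuba1b made up 59.7%, 59.4%, 58.0% and 58.4% of the alpha sum per length in FABPi libraries, against 55.8%, 55.8%, 55.8% and 55.5% in Treg libraries, 3.17 percentage points more. Tubb5 made up 77.5%, 78.8%, 78.2% and 79.6% of the beta sum in FABPi libraries, against 71.7%, 73.7%, 74.2% and 74.9% in Treg libraries, 4.93 points more. Neither share overlapped between the groups. The shares of Tuba1a, Tuba1b and Tuba1c rest on a split of counts that is uncertain, as do those of Tubb2a and Tubb2b. The size of the Tubb5 share is uncertain as well, since Tubb5 shared 0.09% of its 50-base stretches and Tubb4b 41.3%. The counterparts were Tuba1c, with 11.5% ± 0.230 in FABPi and 13.5% ± 0.393 in Treg libraries, Tubb4b, with 17.0% ± 1.02 in FABPi and 20.5% ± 1.94 in Treg libraries, and Tubb6, with 1.29% ± 0.0650 in FABPi and 2.91% ± 0.295 in Treg libraries. The shares of Tuba1a, Tuba4a and Tubb2b overlapped between the groups. With libraries of the same number set side by side, the FABPi share was lower in 4 of 4 for Tuba1a and Tubb2b. For Tuba4a it was higher in 4 of 4. The Tubb2a share was above the Treg range in every FABPi library, at 1.31% ± 0.0875 in FABPi and 0.986% ± 0.133 in Treg libraries.

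**Figure D4:**
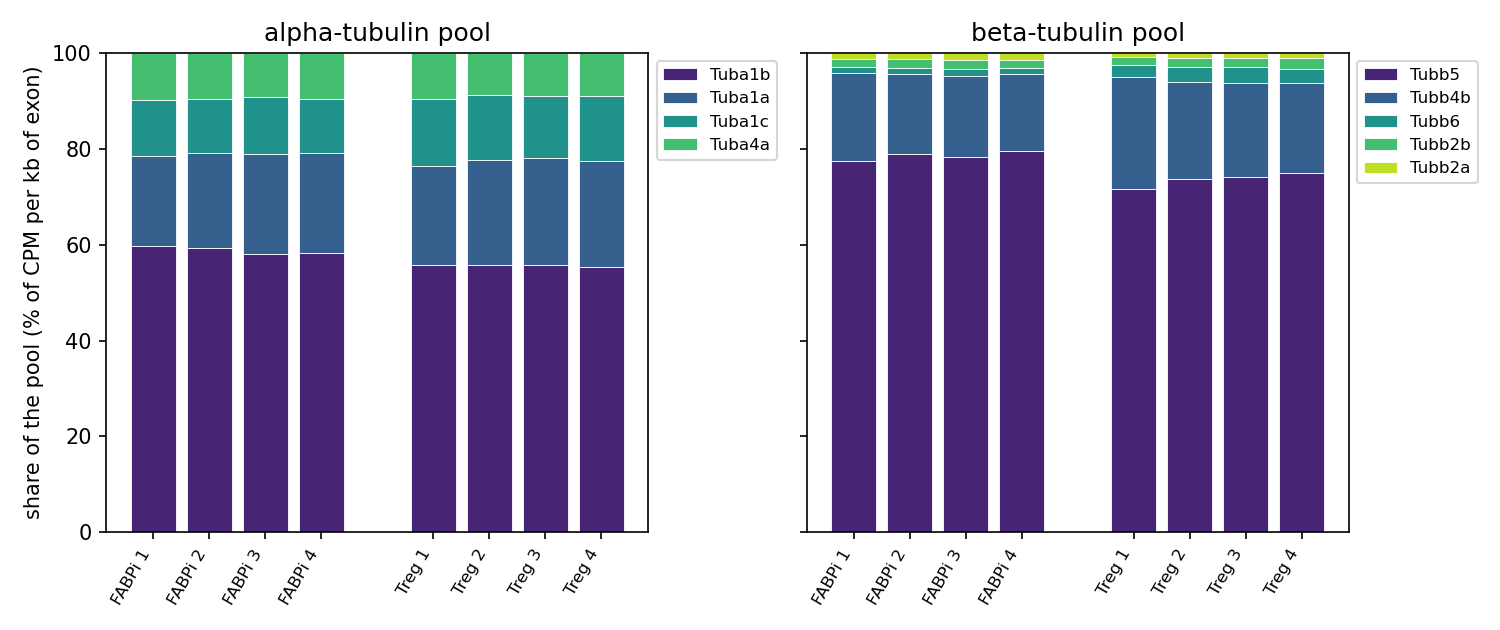
Share of each isotype in the summed alpha-tubulin (left) and beta-tubulin (right) transcripts of each library, in percent of CPM per kb of exon, with FABPi libraries left of Treg libraries. Tuba1b and Tubb5 form the lowest and tallest blocks, and both are taller in every FABPi library.

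The 150 bases before the transcription start of 3 beta genes are shown because the genes differ in size and direction of change. They are from the RefSeq promoter table for GRCm38.p6, in the sense of the gene, 5′ to 3′, ending at the base before the start. CCAAT (or ATTGG on the other strand) and TATAAA (or TTTATA) are in capitals. The stretches are chr17:35838302-35838451 for Tubb5, chr2:25224703-25224852 for Tubb4b and chr13:34078009-34078158 for Tubb2a, all on the minus strand.
Tubb5: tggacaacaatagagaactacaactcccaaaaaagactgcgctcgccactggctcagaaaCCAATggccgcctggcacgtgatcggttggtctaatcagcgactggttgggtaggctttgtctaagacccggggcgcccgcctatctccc
Tubb4b: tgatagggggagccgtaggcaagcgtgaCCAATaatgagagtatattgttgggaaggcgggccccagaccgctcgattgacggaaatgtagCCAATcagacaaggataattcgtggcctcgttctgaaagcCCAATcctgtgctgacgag
Tubb2a: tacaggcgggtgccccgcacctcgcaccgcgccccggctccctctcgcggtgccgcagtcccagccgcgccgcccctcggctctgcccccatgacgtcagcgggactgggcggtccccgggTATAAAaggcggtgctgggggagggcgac
The table held 7 of the 10 members, without Tubb2b, Tubb6 and Tubg1. Within 250 bases upstream, on either strand, CCAAT occurred in 4 of the 7 (Tuba1a, Tuba1c, Tubb4b with 5 matches and Tubb5 with 2), against 33.8% of 32851 promoters of the same length. GGGCGG, the core of a GC box, occurred in 5 of 7, against 32.7% of all promoters. TATAAA occurred in Tubb2a alone, 29 bases before the start, against 12.4% of all promoters. TTTGAA or TTCGAA, forms of an element found in cell cycle genes, occurred in Tubb4b alone, against 17.1%. Such matches describe letters in a window and not sites in use.

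A further 10 tubulin genes were listed, and those that passed the filter were tested in the fit over all genes, in which 18.7% of 14443 genes were higher and 18.1% lower in FABPi libraries at an adjusted p under 0.05. Of the 6 tested, 2 were lower. Tubb3, a beta isotype best known from neurons, averaged 0.703 ± 0.155 CPM in FABPi and 1.36 ± 0.416 CPM in Treg libraries (log2 fold change −0.95, SE 0.24, adjusted p = 0.00923). Tubd1, the delta-tubulin of centrioles, averaged 7.32 ± 0.385 CPM in FABPi and 9.23 ± 0.632 CPM in Treg libraries (log2 fold change −0.33, SE 0.08, adjusted p = 0.00608). None was called higher by edgeR or by DESeq2. At an unadjusted p under 0.05, edgeR gave 1 and DESeq2 0, and that 1 was Tuba8, at 0.346 ± 0.0884 CPM in FABPi and 0.198 ± 0.0883 CPM in Treg libraries (adjusted p = 0.0904).

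Tube1, the epsilon-tubulin of centrioles, averaged 71.1 ± 4.11 CPM in FABPi and 72.7 ± 0.895 CPM in Treg libraries. The 95% interval of its log2 fold change ran from −0.14 to 0.08 (adjusted p = 0.623). Tubb4a had a log2 fold change of −0.07 (adjusted p = 0.689) and Tubg2, the second gamma-tubulin, −0.31 (adjusted p = 0.197). Tuba3b was at 0 in all libraries, and Tuba3a, Tubal3 and Tubb1 did not pass the filter.

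In the list of proteins that surround gamma-tubulin (ring complex, anchors and the augmin complex, which starts branches from existing microtubules), 2 of 19 genes were higher and 4 lower, with a median log2 fold change of 0.01. Akap9, which anchors the ring complex at the Golgi and centrosome, rose to 106 ± 13.8 CPM in FABPi, against 78.2 ± 9.19 CPM in Treg libraries (log2 fold change 0.44, SE 0.10, adjusted p = 0.00407). The augmin subunits Haus4 (−0.24, adjusted p = 0.00109), Haus3 (−0.19, adjusted p = 0.0102) and Haus1 (−0.15, adjusted p = 0.0452) fell. The other genes called were the ring subunit Tubgcp3 (0.15, adjusted p = 0.0244) and the small ring protein Mzt1 (−0.14, adjusted p = 0.0122), both named after their values were seen. Tubgcp2, a core subunit, had a log2 fold change of 0.09 (adjusted p = 0.104, and 0.0266 with the replicate number as a block, which moved the count of higher genes to 4). Tubgcp3 missed the threshold without FABPi replicate 2 or 4 or Treg replicate 2 or 3 (adjusted p between 0.0642 and 0.0843), leaving 1 higher gene. Haus1 missed it without any 1 FABPi replicate or Treg replicate 1 or 2 (0.0568 to 0.114).

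Tubulin chains are folded by the CCT chaperonin, brought there by prefoldin, and joined into dimers by the cofactors Tbca to Tbce. Of 22 genes of this machinery, 2 were higher and 6 lower in FABPi libraries, with a median log2 fold change of −0.07. Pfdn1, a prefoldin subunit, fell to 58.4 ± 3.80 CPM in FABPi, against 85.6 ± 6.13 CPM in Treg libraries (log2 fold change −0.55, SE 0.06, adjusted p = 2.6e-05). Tbca, which holds beta-tubulin, fell to 73.0 ± 2.93 CPM, against 88.8 ± 3.44 CPM in Treg libraries (−0.28, adjusted p = 0.000424), and the prefoldin subunit Pfdn5 fell too (−0.22, adjusted p = 0.00888). Tbce, which binds alpha-tubulin, rose to 48.9 ± 4.35 CPM in FABPi, against 40.1 ± 2.18 CPM in Treg libraries (0.29, adjusted p = 0.00527). The second higher gene was Tbcd (0.14, adjusted p = 0.0176), another cofactor, named after its values were seen. Its call was lost without FABPi replicate 3 (adjusted p = 0.0508) or Treg replicate 2 (0.0582). The lower genes Tcp1 (−0.16, adjusted p = 0.0392) and Arl2 (−0.21, adjusted p = 0.0420) were also named after their values were seen. Tcp1 missed the threshold without FABPi replicate 2 or 4 or Treg replicate 1, 2 or 3 (0.0708 to 0.120). Arl2 missed it without FABPi replicate 1, 2 or 4 or Treg replicate 2, 3 or 4 (0.0543 to 0.134). With the replicate block 10 genes were lower.

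Of the 12 genes of the autoregulation pathway, 2 were higher and 2 lower, shares near those of all tested genes. Ttc5, the reader of nascent tubulin, had 45.2, 48.8, 49.4 and 51.5 CPM in FABPi libraries, against 49.2, 55.2, 56.6 and 51.1 CPM in Treg libraries. The groups overlapped, and the 95% interval of its log2 fold change of −0.12 ran from −0.26 to 0.02 (adjusted p = 0.114). Its adjusted p was 0.0183 with the replicate block and 0.0352 without Treg replicate 1. Scaper, the adaptor, rose to 27.7 ± 2.62 CPM in FABPi, against 22.2 ± 1.60 CPM in Treg libraries (log2 fold change 0.32, SE 0.08, adjusted p = 0.00595). Among CCR4-NOT subunits, Cnot6, a deadenylase, fell (−0.17, adjusted p = 0.00981), Cnot8, another deadenylase, fell (−0.11, adjusted p = 0.0338), and Cnot10 rose (0.14, adjusted p = 0.0280). With the block 5 genes were lower. Cnot10 missed the threshold without FABPi replicate 2 or 4 or Treg replicate 2 or 4 (0.0520 to 0.0909), leaving 1 higher gene. Cnot8 missed it without FABPi replicate 2, 3 or 4 or Treg replicate 2 or 3 (0.0649 to 0.102), leaving 1 lower gene.

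For enzymes that modify tubulin, 14.3% of those tested were higher and 4.76% lower, against 18.7% and 18.1% of all tested genes. Of 21 tested, 3 were higher and 1 lower, with a median log2 fold change of 0.04. Svbp, the partner of the enzymes that remove the C-terminal tyrosine, rose to 15.4 ± 0.581 CPM in FABPi, against 11.8 ± 1.29 CPM in Treg libraries (log2 fold change 0.38, SE 0.08, adjusted p = 0.00312). The deacetylases Hdac6 (0.15, adjusted p = 0.0493) and Sirt2 (0.14, adjusted p = 0.0244) rose by less, and Agbl5, which removes glutamate side chains, fell (−0.25, adjusted p = 0.0349). Ttl, which adds the tyrosine back, had 13.5 ± 0.154 CPM in FABPi and 13.9 ± 0.587 CPM in Treg libraries (−0.04, adjusted p = 0.619). Hdac6 missed the threshold without FABPi replicate 2 or 4 or Treg replicate 1, 2 or 3 (0.0902 to 0.151), and with DESeq2 (0.0601). Sirt2 missed it without FABPi replicate 2, 3 or 4 or Treg replicate 2 or 3 (0.0568 to 0.0708), so that 1 gene was higher without FABPi replicate 2 or 4 or Treg replicate 2 or 3. Agbl5 missed it without FABPi replicate 1, 3 or 4 or Treg replicate 2, 3 or 4 (0.0517 to 0.106), leaving 0 lower genes, while the block gave 2.

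Of 8 tested genes for proteins that hold free dimers or cut microtubules, 1 was higher and 2 lower. Stmn1, stathmin, which binds free dimers, fell to 183 ± 13.8 CPM in FABPi, against 242 ± 8.17 CPM in Treg libraries (log2 fold change −0.40, SE 0.05, adjusted p = 0.000141). Katna1, the catalytic subunit of the severing enzyme katanin, rose to 59.2 ± 1.60 CPM, against 48.9 ± 3.48 CPM in Treg libraries (0.28, adjusted p = 0.00165). Fignl1, related to the severing enzymes, fell (−0.25, adjusted p = 0.00376).

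Genes for proteins that bind the microtubule wall or its plus end were called in both directions, 9 higher and 11 lower of 32 tested, and their median log2 fold change was 0.02. The largest changes among those of at least 1 CPM were in low genes. Map1b rose to 2.11 ± 0.227 CPM in FABPi, against 0.845 ± 0.182 CPM in Treg libraries (log2 fold change 1.33, SE 0.17, adjusted p = 8.6e-05), and Map2, also known from neurons, to 1.45 ± 0.110 CPM, against 0.920 ± 0.134 CPM (0.66, adjusted p = 0.00625). Dclk1, a doublecortin-like kinase, fell to 0.744 ± 0.184 CPM, against 1.41 ± 0.331 CPM in Treg libraries (−0.93, adjusted p = 0.00681). Mapre2, a plus-end binding protein, fell to 47.1 ± 5.03 CPM, against 71.1 ± 2.25 CPM in Treg libraries (−0.59, SE 0.07, adjusted p = 3.2e-05). Its relative Mapre1 fell by less (−0.17, adjusted p = 0.0189), and missed the threshold without FABPi replicate 2 (0.0601) or 4 (0.0618). Map4, the main wall-binding protein outside neurons, had a log2 fold change of 0.08 (adjusted p = 0.159, and 0.0425 with the replicate block).

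Of 19 centriole assembly genes, 3 were higher and 5 lower, with a median log2 fold change of −0.05. Poc1a (log2 fold change −0.36, adjusted p = 0.000153), a protein of the centriole wall, and the centrin Cetn2 (−0.36, adjusted p = 0.00103) fell. Cep63, which helps to place new centrioles, rose (0.31, adjusted p = 0.000606), as did Cntln (0.28, adjusted p = 0.0144), whose call was lost without Treg replicate 2 (0.0540). The rest, named after their values were seen, were the lower genes Cep192 (−0.20, adjusted p = 0.00755), Stil (−0.17, adjusted p = 0.0104) and Cep57 (−0.13, adjusted p = 0.0221) and the higher gene Ofd1 (0.26, adjusted p = 0.00646). Cep57 missed the threshold without FABPi replicate 2 (0.0545) or Treg replicate 3 (0.0723). With the block 6 genes were higher and 8 lower.

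Genes of the other filaments of the cell were called in both directions. Of 23 genes for actin, its regulators and vimentin, 2 were higher and 10 lower, with a median log2 fold change of −0.16. Tmsb4x, which holds free actin, fell to 1081 ± 76.3 CPM in FABPi, against 1743 ± 121 CPM in Treg libraries (log2 fold change −0.69, SE 0.06, adjusted p = 6.5e-06). Arpc4, of the actin branching complex (−0.40, adjusted p = 0.000535), Tmsb10 (−0.38, adjusted p = 0.000619) and Actb, beta-actin (−0.18, adjusted p = 0.0300), fell too. Vim, the intermediate filament vimentin, rose to 3209 ± 207 CPM in FABPi, against 2333 ± 107 CPM in Treg libraries (0.46, SE 0.06, adjusted p = 6.8e-05). Tpm4, a tropomyosin named after its values were seen, rose too (log2 fold change 0.13, adjusted p = 0.0302). Actb missed the threshold without FABPi replicate 2 or 4 or Treg replicate 1 or 3 (0.0553 to 0.0940), and Tpm4 without any 1 of FABPi replicates 1, 2 and 4 and Treg replicates 2, 3 and 4 (0.0601 to 0.105). Without FABPi replicate 1, 2 or 4 or Treg replicate 2 or 3, 1 gene was higher.

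Proliferation markers, listed because dividing cells build spindles, were lower as a group, 19 of 22 tested, with a median log2 fold change of −0.38. Cdc20, an activator of the anaphase-promoting complex, fell to 138 ± 8.80 CPM in FABPi, against 195 ± 7.08 CPM in Treg libraries (log2 fold change −0.50, SE 0.05, adjusted p = 1.2e-05). No marker had a log2 fold change above 0 in edgeR or in DESeq2. Rrm2, which makes DNA precursors (−0.49, adjusted p = 0.000346), the mitotic cyclin Ccnb2 (−0.46, adjusted p = 3.8e-06) and its kinase Cdk1 (−0.46, adjusted p = 3.8e-05) fell as well. Mki67 averaged 951 ± 59.4 CPM in FABPi and 1080 ± 112 CPM in Treg libraries (−0.18, adjusted p = 0.0643). Without Treg replicate 1 (0.0141), with DESeq2 (0.0371), with the replicate block (0.00238) and without the filter on low counts (0.0252), Mki67 was under the threshold. The markers' summed level was between 6425 and 7068 CPM in FABPi libraries, against 7898 to 8280 CPM in Treg libraries. Proliferation markers and 9 of the 10 tubulin genes were thus lower in the same libraries, and the part of the markers in the tubulin differences was not tested.

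**Figure D5:**
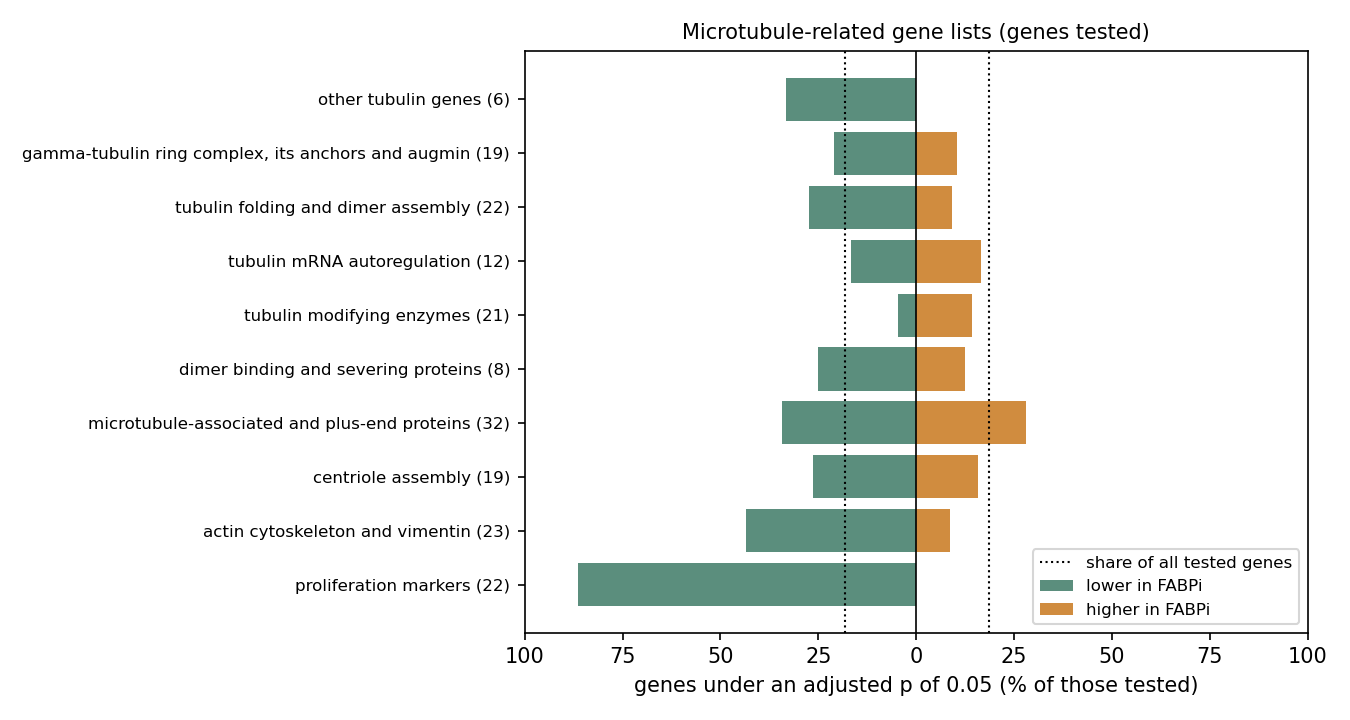
Share of the tested genes of each list under an adjusted p of 0.05, lower in FABPi to the left (green) and higher to the right (orange), with the number tested in parentheses; dotted lines mark the shares of all tested genes, 18.1% lower and 18.7% higher. The bar for proliferation markers reaches farthest, with 19 of 22 genes lower and none higher.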

How the data were processed

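Whole-number counts of reads per Ensembl gene, not normalized, were deposited by the authors, 1 file for each of 8 libraries. The submitters' processing notes name deepTools, DESeq2, featureCounts and STAR and the build GRCm38, and per the labels' protocols the libraries were stranded and mRNA-selected. Versions, strand setting and annotation release are not given in the sources used here. Groups and replicate numbers came from the titles.

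Symbols (53360 of 53465 IDs), coordinates and exon lengths came from GENCODE M21. Genes were tested with edgeR 4.0.16 (R 4.3.3): filterByExpr at its defaults, TMM scaling, the quasi-likelihood F-test with group as the only term (6 residual degrees of freedom) and Benjamini-Hochberg adjustment over 14443 genes, with calls under 0.05. SEs were derived from the F statistic. The 95% intervals used these SEs and the t distribution with 6 degrees of freedom. That reference differs from the one of the F-test, so interval and p-value need not match. CPM per kb is CPM over the exon-union length. An adjusted p in the text is from this fit where no other is named. The script was tested on simulated data.

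Alternatives were DESeq2 (1.42.0) size factors, its Wald test, no filter, each replicate left out, and the replicate number as a block. Same-numbered libraries deviated together (r = 0.384, 0.145, 0.106 and 0.264 across genes), although FABPi replicate 2 correlated best with Treg replicate 4 (0.208). The numbers were therefore used as pairs in the block fit and in the counts of same-numbered libraries, but not in the main fit. The labels do not say that the numbers mark shared cultures, so the pairing is uncertain. Replicates differed by more than sampling noise (chi-square per degree of freedom 3.08 to 24.2 over genes with at least 20 counts in the pair).

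The members and gene lists were chosen with earlier results of these data known. From each list up to 4 called genes of at least 1 CPM were named by size of change, plus Ttc5, Stmn1, Ttl, Tubgcp2, Mapre1, Map4, Actb and Mki67. Coding starts are printed for 5 members, and those of the others are not reported here.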

Additional observations from a re-analysis of the deposited data

Results flagged for a closer look

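Within the FABPi group, Tubb2b had 1 library apart from the others: FABPi replicate 3 had 42.0 CPM, while the other 3 lay between 36.1 and 36.7 CPM. Its gap to the nearest library was 0.898 of the group's range, above the critical value of 0.829 for 4 values. The same comparison was made for 24 sets of 4 values, and chance sets about 1 in 20 apart in this way. That library is also the one closest to the Treg range, whose lowest value was 42.4 CPM.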

How the results depend on the processing

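The members' log2 fold changes kept their sign under every alternative run, with Tubb6 between −1.52 and −1.38, Tubb5 between −0.21 and −0.17 and Tubb2a between 0.04 and 0.19, and none moved by 1 SD of its replicates. All tested genes called higher and lower numbered 2694 and 2617, 2571 and 2701 with DESeq2 size factors, 2723 and 2505 without the filter, 2578 and 2728 with DESeq2 (whose adjusted p is missing for 10979 genes), and 3845 and 3728 with the replicate block. Leaving out 1 library gave 2078 to 2939 higher and 2007 to 2779 lower. With the block, the counts that moved by over 1.5 times were gamma-tubulin complex genes higher (4 for 2), centriole genes higher (6 for 3) and lower (8 for 5), folding genes lower (10 for 6), autoregulation genes lower (5 for 2) and modifying enzymes lower (2 for 1). The block changed the calls of Ttc5, Tubgcp2, Map4 and Mki67 and of no other named gene. Without the filter, 2 gamma-tubulin complex genes (4 with it) and 1 autoregulation gene (2 with it) were lower. Haus1, Mzt1, Cnot8, Hdac6 and Cep57 then missed the threshold, with adjusted p of 0.116, 0.0555, 0.156, 0.0615 and 0.102. So did Map6 (0.061), Camsap2 (0.0639) and Slain2 (0.109), of the list of proteins that bind the microtubule wall or plus end. Hdac6 also missed it with DESeq2 size factors (0.0569). With each library left out in turn, the higher counts ran from 1 to 3 for gamma-tubulin complex genes, 1 to 2 for folding genes, 1 to 2 for autoregulation genes, 1 to 3 for modifying enzymes and 1 to 2 for actin and vimentin. The lower counts ran from 1 to 3 for autoregulation genes and 0 to 1 for modifying enzymes. Fewer samples entered those fits, and the cause of the other changes was not tested. Of 86 genes called in the lists, 64 kept their call under every alternative. The Tuba1b share was higher in FABPi libraries by 2.89 to 3.45 points and the Tubb5 share by 4.29 to 5.36 points with 1 library left out. Counts for a member ran from 443 (Tubb2a) to 117924 (Tubb5), and for Tubb3 and Tuba8 the low counts limit precision.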
